A study of Mus musculus with 6 samples.

Results

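The smooth-muscle contractile genes that fibroblasts switch on as they become myofibroblasts were followed in fibroblasts sorted from the mouse heart scar. The 10 genes were taken by name: the actins Acta2 and Actg2, the actin-binding genes Tagln, Cnn1 and Cnn2, the myosin light chain gene Myl9, the tropomyosins Tpm1, Tpm2 and Tpm4, and the leiomodin gene Lmod1. Each name matched 1 of the 42256 gene identifiers in the count table, and all 10 were among the 15840 genes that passed the filter on low counts. RNA was sequenced from PDGFRa+ cells, a fibroblast-enriched fraction, collected by flow cytometry from collagenase-digested scar of mice on the Mixed 129S2/C57Bl6 background, 7 days after myocardial infarction. Every mouse ate tamoxifen chow from 1 week before injury until harvest, and every mouse carried loxP-flanked Htr2b, the gene of the serotonin receptor 5-HT2B. The 2 control libraries came from Htr2bfl/fl mice, and the 4 Htr2b_cKO libraries came from Htr2bfl/flPostnMCM/+ mice, in which the periostin locus drives a tamoxifen-inducible Cre in activated fibroblasts. No control carried the Cre allele, so the Cre, its Postn allele and loss of Htr2b cannot be told apart. The animals' age is not given in the sources used here. Each library was taken as 1 animal, and p-values measure only the spread between these libraries.

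Myofibroblasts are fibroblasts that acquire actin-myosin bundles, the stress fibres, and pull on the matrix they secrete. Smooth-muscle α-actin, the product of Acta2, is the filament protein by which they are usually recognised, and calponins, transgelin, tropomyosins and leiomodin bind or cap such filaments. Many of these genes are switched on by serum response factor (SRF) with its partners of the myocardin family, which read the pool of free actin and bind a short promoter element called the CArG box. In the infarcted heart these cells appear in the first days after injury, and smooth muscle cells and pericytes of vessels express the same genes.

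To show that element, the promoters of Acta2, Cnn2 and Myl9 were read from RefSeq (build GRCm38.p6, 250 bases before to 50 bases after the RefSeq start), since they were the 3 of the 8 matched member promoters that held a match. Lower-case letters are flanking bases, and capitals mark matches to the CArG box, which is CC, then 6 bases that are each A or T, then GG, or the same with 1 G or C among those 6. The element reads the same on both strands, and each sequence runs 5′ to 3′ on the strand of its gene. Distances are from the RefSeq start, which for these genes lies inside the gene bounds given below. The Acta2 promoter (chr19:34255324-34255623, minus strand) held 2 matches, both with 1 G or C in the middle, starting 84 and 34 bases before the RefSeq start.
Acta2: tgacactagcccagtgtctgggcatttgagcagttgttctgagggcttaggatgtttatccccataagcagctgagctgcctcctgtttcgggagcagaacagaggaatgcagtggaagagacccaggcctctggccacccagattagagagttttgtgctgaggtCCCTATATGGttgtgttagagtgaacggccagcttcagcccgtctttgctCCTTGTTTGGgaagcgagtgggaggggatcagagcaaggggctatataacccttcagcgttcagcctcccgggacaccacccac
The Cnn2 promoter (chr10:79988350-79988649, plus strand) held 1 match without such a base, starting 56 bases before the start.
Cnn2: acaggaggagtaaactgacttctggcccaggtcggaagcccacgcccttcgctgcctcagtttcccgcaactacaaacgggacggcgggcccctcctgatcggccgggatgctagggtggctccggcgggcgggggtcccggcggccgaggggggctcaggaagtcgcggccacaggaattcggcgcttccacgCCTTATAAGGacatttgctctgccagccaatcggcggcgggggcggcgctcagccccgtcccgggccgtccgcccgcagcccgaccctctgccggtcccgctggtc
The Myl9 promoter (chr2:156775214-156775513, plus strand) held 1 match without such a base, starting 161 bases before the start, and 1 with it, starting 99 bases before the start.
Myl9: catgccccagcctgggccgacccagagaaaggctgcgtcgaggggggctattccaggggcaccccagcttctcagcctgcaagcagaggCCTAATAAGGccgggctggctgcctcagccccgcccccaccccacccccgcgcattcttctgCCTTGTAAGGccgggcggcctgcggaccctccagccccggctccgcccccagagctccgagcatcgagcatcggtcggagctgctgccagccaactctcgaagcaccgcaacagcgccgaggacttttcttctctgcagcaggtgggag
Of all 32851 promoters of this length, 1.63% held the strict element and 8.5% held a match with 1 G or C in the middle. No match was found in the windows of Cnn1, Tpm1, Tpm2, Tpm4 and Lmod1. Promoters of Tagln and Actg2 were not matched by name, so they were not searched. A match describes letters and is not a measured binding site.

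The libraries held 28533427 to 37392496 estimated counts, and a count of 0 allows 0.0781 to 0.108 CPM (counts per 1e6 of the TMM-scaled library), for counting error only. Pdgfra, which encodes the protein used for sorting, had 732 and 1237 CPM in the controls and 668 to 1126 CPM in Htr2b_cKO mice. Htr2b had 13 and 7 counts in the control libraries and 0, 3, 29 and 4 in the Htr2b_cKO libraries, so the library labelled Htr2b_cKO 3 went against its label, although counts over a whole gene do not see a removed exon. The library labelled Htr2b_cKO 4 was the only male, with Xist at 0.267 CPM against 385 CPM or more elsewhere. Every fit was repeated without each library.

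Compared per kilobase of exon, the members covered a wide range of levels, in an order in which most neighbours were not separated. Tpm4 was the most abundant, at 338 CPM per kb on average over the 6 libraries (range 287 to 420), and its lowest library lay above the highest library of every other member. Acta2 followed at 132 CPM per kb (98.9 to 206), then Tagln at 90.4 (51.4 to 131) and Tpm2 at 75.9 (54.1 to 90.3). Cnn2 at 64.7 CPM per kb (54.5 to 83.3) and Tpm1 at 63.1 (52.3 to 73.3) could not be ordered, and the ranges of Acta2, Tagln, Tpm2, Cnn2 and Tpm1 overlapped from each to the next. Myl9 was at 38.7 CPM per kb (24 to 61.7). Cnn1 at 4.18 CPM per kb (2.04 to 6.92) and Actg2 at 3.96 (2.19 to 5.48) were much lower, and Lmod1 was lowest at 0.392 (0.238 to 0.519). The exon length joins all annotated transcripts of a gene, so a gene with many isoforms such as Tpm1, at 6485 bases, is set lower by this scale.

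Acta2 (ENSMUSG00000035783, chromosome 19, 34241090 to 34255590 in mm10) stood at 452 and 232 CPM in the controls and at 281, 296, 217 and 258 CPM in Htr2b_cKO mice. Control 1 was far above all others, control 2 lay inside the range of the Htr2b_cKO libraries, and the groups overlapped. The log2 fold change was -0.38 (SE 0.25, interval of 2 SEs -0.89 to 0.13), which edgeR did not call (adjusted p = 0.667). Actg2, the actin of visceral smooth muscle (ENSMUSG00000059430, chromosome 6, 83512905 to 83536265), was at 8.53 and 5.21 CPM in control and at 7.23, 6.81, 3.41 and 5.76 CPM in Htr2b_cKO mice. It was lowest in the library labelled Htr2b_cKO 3, and the groups overlapped (log2 fold change -0.26, SE 0.34, edgeR adjusted p = 0.835). Per kilobase, Acta2 made up 7.71% to 12.8% of the summed signal of 6 actin genes, with the highest share in control 1, and Actg2 made up 0.19% to 0.36%. The rest was almost all cytoskeletal actin, with Actb at 37% to 43.1% and Actg1 at 47.6% to 53.3%. Little of the sequence was shared between genes: 1.39% of the distinct 31-base stretches of Acta2 transcripts and 1.21% of those of Actg2 also occur in transcripts of another gene.

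Tagln encodes transgelin, an actin-bundling protein of early smooth muscle (ENSMUSG00000032085, chromosome 9, 45929619 to 45936058), and had 260 and 102 CPM in the controls. In the Htr2b_cKO libraries it had 178, 247, 148 and 143 CPM, so that all 4 lay between the pair of controls. The group means were nearly equal, at 181 ± 111 CPM (SD, n = 2) and 179 ± 48 CPM (SD, n = 4), with a log2 fold change of -0.02 (SE 0.39, edgeR adjusted p = 0.991). Its interval of 2 SEs, from -0.80 to 0.76, leaves room for a sizeable difference in either direction. The Pcsk7 gene lies across Tagln on the other strand, and the counting's use of strand is not given in the sources used here.

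Cnn1 encodes calponin 1, which binds actin in contractile smooth muscle (ENSMUSG00000001349, chromosome 9, 22099216 to 22109630). It was at 18.3 and 5.57 CPM in control and at 18.9, 9.82, 6.4 and 9.68 CPM in Htr2b_cKO mice. Control 1 and Htr2b_cKO 1 shared a high level and the other 4 libraries a low one, so Cnn1 had the widest span of the members, 3.4-fold from lowest to highest. Its log2 fold change was -0.12 with an SE of 0.56 (edgeR adjusted p = 0.965). Cnn2, the calponin found also outside muscle (ENSMUSG00000004665, chromosome 10, 79988584 to 79996062), was at 205 and 134 CPM in control and at 134, 187, 143 and 152 CPM in Htr2b_cKO mice. Control 1 was again the highest, the groups overlapped, and edgeR gave a log2 fold change of -0.14 with an SE of 0.20 (adjusted p = 0.855).

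Myl9 encodes the regulatory light chain whose phosphorylation starts contraction (ENSMUSG00000067818, chromosome 2, 156775420 to 156781658). It had 71.7 and 27.8 CPM in the controls and 35.2, 53.1, 48.3 and 33.7 CPM in Htr2b_cKO mice. As with Tagln, control 1 was the highest and control 2 the lowest of the 6, and all 4 Htr2b_cKO libraries lay between them. For Myl9 edgeR gave a log2 fold change of -0.23 with an SE of 0.38 (adjusted p = 0.877).

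The tropomyosins, which lie along the actin filament and govern access of myosin to it, spanned 1.4-fold (Tpm1), 1.67-fold (Tpm2) and 1.46-fold (Tpm4) from the lowest to the highest library, beside 1.53-fold for Cnn2. Tpm1 (ENSMUSG00000032366, chromosome 9, 67022590 to 67049406) was at 426 and 391 CPM in control and at 475, 466, 339 and 359 CPM in Htr2b_cKO mice. The first pair of Htr2b_cKO libraries lay above both controls and the other pair below, and edgeR gave a log2 fold change of 0.00 with an SE of 0.19 (adjusted p = 0.995). Tpm2 (ENSMUSG00000028464, chromosome 4, 43514711 to 43523765) was at 247 and 195 CPM in control and at 257, 263, 157 and 206 CPM in Htr2b_cKO mice. The same pair was highest, and edgeR's log2 fold change was 0.00 with an SE of 0.22 (edgeR adjusted p = 0.998).

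Tpm4, the tropomyosin of nonmuscle stress fibres (ENSMUSG00000031799, chromosome 8, 72134975 to 72153142), was the member nearest to a separation of the groups. It was at 633 and 672 CPM in control and at 824, 926, 668 and 744 CPM in Htr2b_cKO mice. Of the 4 Htr2b_cKO libraries 3 lay above both controls, while the library labelled Htr2b_cKO 3 lay between them, so the groups overlapped. The log2 fold change of 0.28 (SE 0.18) had the smallest adjusted p of the members and did not pass (edgeR adjusted p = 0.65). Of the 31-base stretches of Tpm4 transcripts, 15.97% also occur in the processed pseudogene Gm7809, which had only 5.5 to 10.1 CPM, and the pair together stood at 659 ± 25.9 CPM (SD, n = 2) in control and 799 ± 111 CPM (SD, n = 4) in Htr2b_cKO libraries. Among 4 tropomyosin genes Tpm4 made up 57.6% and 62% of the summed signal per kilobase in the control libraries and 64.9% to 67.6% in the Htr2b_cKO libraries. The share of Tpm3, whose reads may be divided with a copy, was 12.2% and 12.1% in the controls and 7.07% to 9.51% in Htr2b_cKO mice, so the shares of the others move with it. Counts per gene do not separate the muscle and nonmuscle isoforms of a tropomyosin gene.

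Lmod1 encodes leiomodin 1, which starts new actin filaments in smooth muscle (ENSMUSG00000048096, chromosome 1, 135324807 to 135368065). It had 1.87 and 0.94 CPM in control and 1.43, 2.05, 1.36 and 1.63 CPM in Htr2b_cKO mice. Control 2 was lowest and Htr2b_cKO 2 highest, the groups overlapped, and edgeR gave a log2 fold change of 0.16 with an SE of 0.43 (adjusted p = 0.931).

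**Figure D1:**
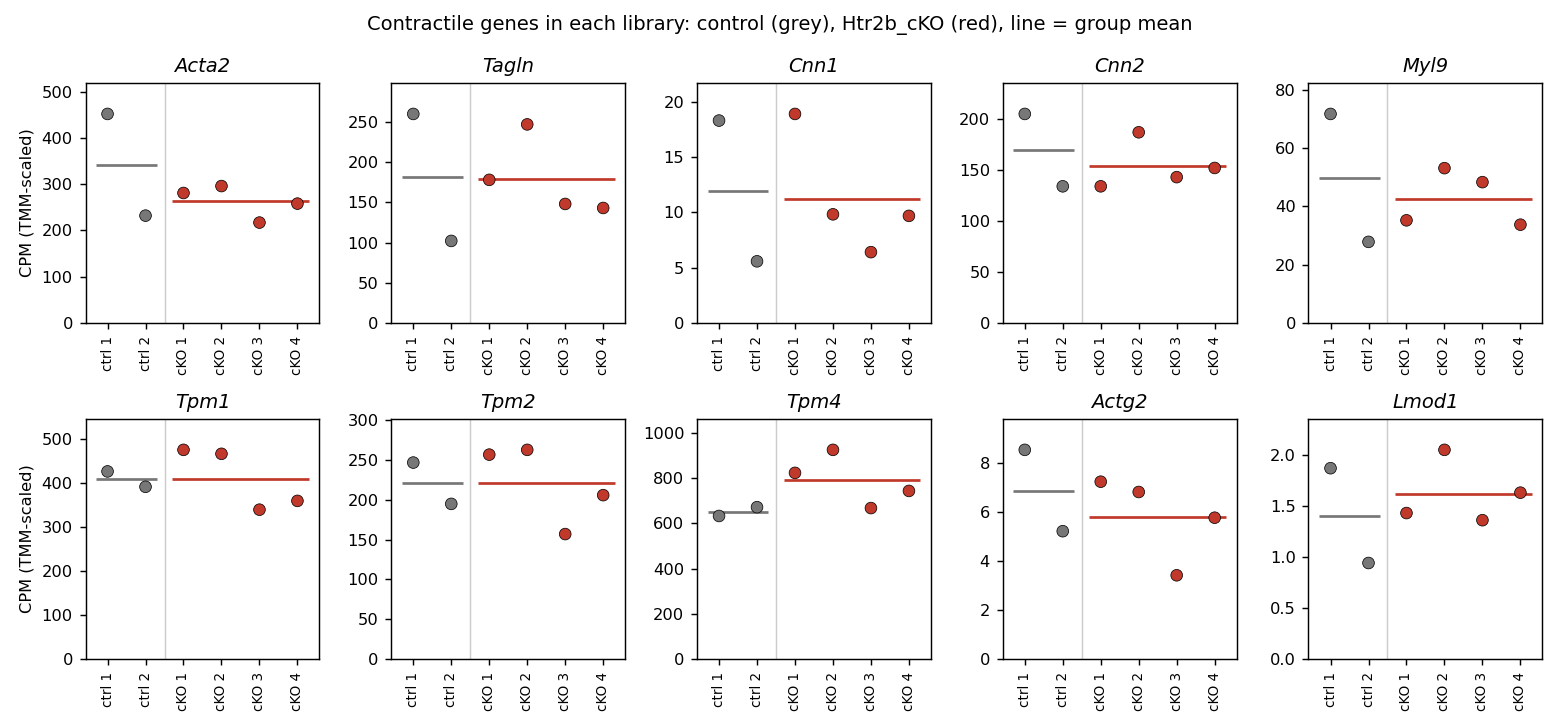
CPM (vertical axis, from 0) of the 10 contractile genes in each library (horizontal axis). Points are libraries, grey for control and red for Htr2b_cKO, and lines are group means; control 1 is the highest point for Acta2, Tagln, Cnn2, Myl9 and Actg2.

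As a group the contractile genes were not separated by genotype. None of the 10 members was called by edgeR's quasi-likelihood test (Benjamini-Hochberg adjusted p under 0.05), where 0.0189% of all genes tested were called. None had an unadjusted p under 0.05, against 9.59% of all genes tested, and DESeq2 and limma voom called 0 of the 10, against 0.789% and 0.0126% of all genes. For none of the 10 did the Htr2b_cKO libraries lie wholly above or below both controls, against 19.6% of all genes tested. The log2 fold change was above 0 for 3 members and below 0 for 7, with a median of -0.07 beside 0.00 over all genes tested. This split was 8 above and 2 below after the GC and exon length correction (median 0.05, all genes 0.03), and 6 above and 4 below without the library labelled Htr2b_cKO 3 (median 0.08, all genes 0.00). The difference between the pair of control animals exceeded the difference between the genotypes for 9 of the 10 members, the exception being Tpm4, and for 58.4% of all genes tested. In absolute log2 units the median gap between the controls was 0.83 for the members and 0.29 for all genes tested, with control 1 above control 2 for 9 members.

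The direction of the group also turned with which control was kept, which follows from the gap between the controls and is not a separate result. Without control 1 all 10 members had a log2 fold change above 0, beside 54.2% of all genes. Their median was 0.21 beside 0.03 over all genes. Without control 2, 9 of the 10 were below 0, while 52.1% of all genes were above 0. The members' median was then -0.47 beside 0.03 over all genes. Acta2 moved from 0.18 (SE 0.23) without control 1 to -0.77 (SE 0.22) without control 2, and Tagln from 0.81 (SE 0.33) to -0.53 (SE 0.30). Cnn1 moved from 1.00 (SE 0.61) to -0.71 (SE 0.51), and Myl9 from 0.61 (SE 0.30) to -0.74 (SE 0.26). Only Tpm4 kept its sign, at 0.23 and 0.33. None of these was called by edgeR: the adjusted p was 0.999 for every member without control 1, where 0.00601% of all genes were called, and at least 0.267 without control 2, where 0.0356% were. An unadjusted edgeR p under 0.05 was reached by 1 member without control 1 (Tagln, against 3.25% of all genes) and by 2 without control 2 (Acta2 and Myl9, against 10.4%). With 1 control left, the lone library is assumed to vary like the Htr2b_cKO libraries.

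**Figure D2:**
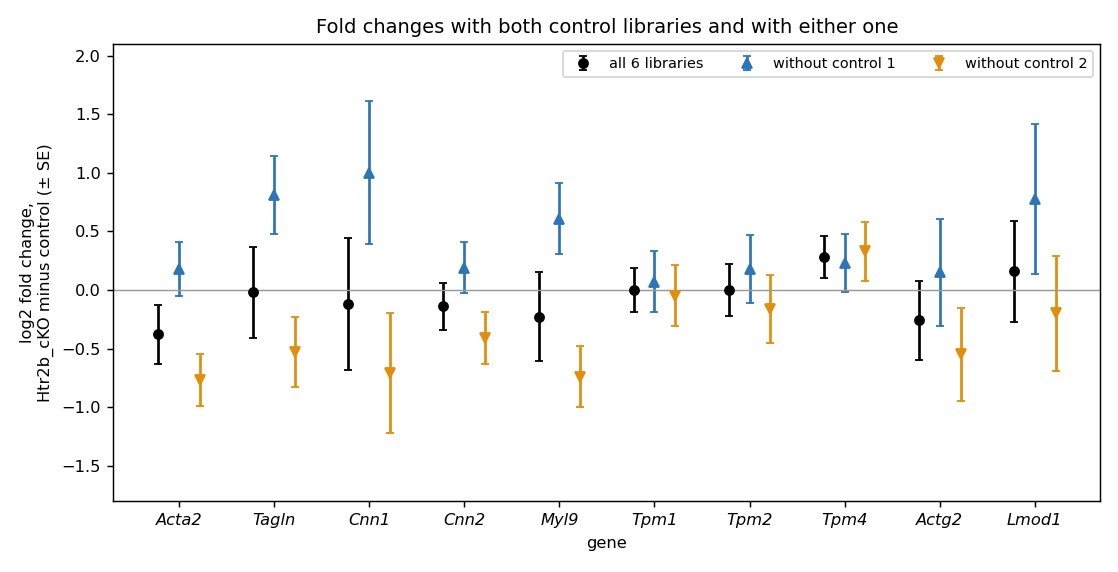
Log2 fold change, Htr2b_cKO minus control, with its SE (vertical axis) for each gene (horizontal axis), fitted with all 6 libraries (black circles), without control 1 (blue triangles) and without control 2 (orange inverted triangles). Every gene except Tpm4 sits higher without control 1 than without control 2, and only Tpm4 is above 0 in all 3 fits.

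Across the 6 libraries the contractile genes tended to move together. Control 1 was the highest library for 5 members (Acta2, Tagln, Cnn2, Myl9 and Actg2), and Htr2b_cKO 2 for 3 (Tpm2, Tpm4 and Lmod1). Control 2 was the lowest for 4 (Tagln, Cnn1, Myl9 and Lmod1), and the library labelled Htr2b_cKO 3 for 4 (Acta2, Tpm1, Tpm2 and Actg2). With each gene's log2 CPM standardised to its own mean and SD, the mean over members was 0.90 in control 1, 0.78 in Htr2b_cKO 2, 0.30 in Htr2b_cKO 1, -0.27 in Htr2b_cKO 4, -0.82 in the library labelled Htr2b_cKO 3 and -0.90 in control 2. Libraries with high and with low contractile expression were thus found in both genotypes.

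**Figure D3:**
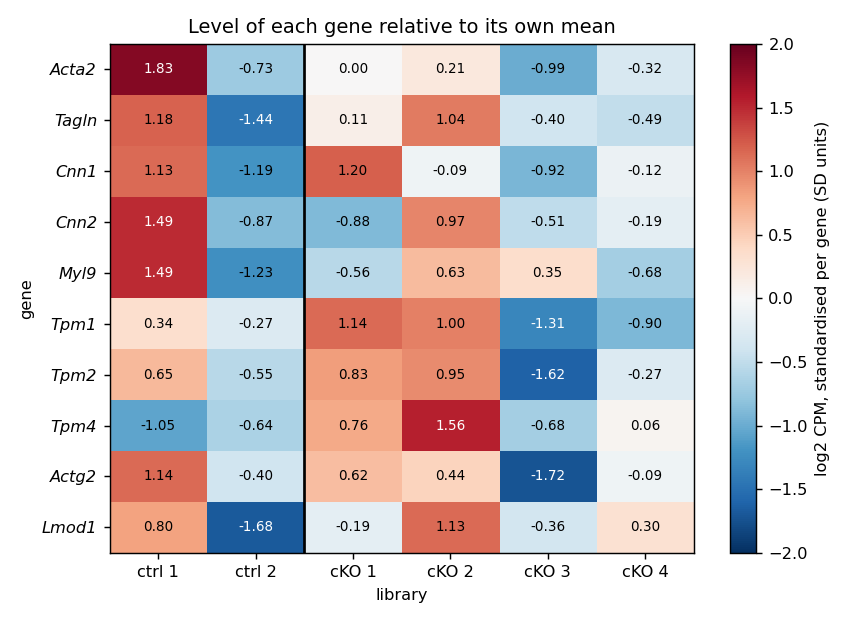
Log2 CPM of each gene (rows) in each library (columns), standardised per gene in SD units, with the black line between the control and Htr2b_cKO libraries. Control 1 and Htr2b_cKO 2 are mostly red (high), control 2 and Htr2b_cKO 3 mostly blue (low), and Tpm4 at -1.05 goes against the other members in control 1.

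Of the 45 pairs of members, 43 had a Pearson r above 0 over the 6 libraries. The median r was 0.61 and the median Spearman rho 0.66, whereas each member's median r with all tested genes lay between -0.05 and 0.02. For 13 pairs the exact two-sided permutation p of r, over 720 orders, was under 0.05. None of the 45 pairs passed after Benjamini-Hochberg adjustment over the pairs (smallest adjusted p = 0.168), and 4 pairs had an exact permutation p of rho under 0.05 (smallest adjusted p = 0.272). An exact test over 6 libraries cannot give a p below 0.00139, which for a single pair among 45 is an adjusted p of 0.0625. With the group means removed the median r was 0.69, with 44 pairs above 0. The median was 0.70 without control 1 and 0.70 among the 4 Htr2b_cKO libraries alone. Some pairs fell below 0 among those 4, such as Cnn1 with Myl9, at -0.56 (0.43 over the 6 libraries). Without the 2 libraries farthest from the median of the first gene of each pair, 37 pairs were above 0, with a median r of 0.65. No batch is given in the labels, so no within-batch value could be computed.

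Of the 45 pairs, 10 had r above 0.8, and Cnn2 was in 4 of them, Tagln and Actg2 in 3 each. Of all tested genes, 1% (for Lmod1) to 3.54% (for Tpm4) had r above 0.8 with a given member. Tagln followed Lmod1 (r = 0.91, rho = 0.77), Myl9 (r = 0.86, rho = 0.94), Cnn2 (r = 0.85, rho = 0.60) and Acta2 (r = 0.80, rho = 0.83), with exact permutation p of r of 0.0139, 0.025, 0.0417 and 0.0403 and an adjusted p of 0.168 for each. After leaving out the 2 libraries farthest from the median of the first gene named, r was 0.78 for Tagln with Lmod1, 0.58 for Tagln with Myl9, 0.74 for Tagln with Cnn2 and 0.99 for Acta2 with Tagln. Tpm2 followed Actg2 (r = 0.94, rho = 0.77, exact permutation p of r 0.0139, adjusted p = 0.168) and Tpm1 (r = 0.92, rho = 0.89, exact permutation p of r 0.00972, adjusted p = 0.168). These were 0.91 without the 2 libraries farthest from the median of Tpm2 and 0.87 without the 2 farthest from the median of Tpm1. Acta2 had r = 0.84 with Actg2 (rho = 0.94, exact permutation p of r 0.0458, adjusted p = 0.168), and 0.92 without the 2 farthest libraries. Cnn2 with Myl9 had r = 0.87 over 6 libraries (rho = 0.71, exact permutation p of r 0.0222, adjusted p = 0.168) but 0.33 without its 2 farthest, so that relation rests on those 2 libraries, control 1 and Htr2b_cKO 2. The remaining 3 pairs above 0.8 were Acta2 with Cnn2 (r = 0.83, rho = 0.60), Cnn1 with Actg2 (r = 0.81, rho = 0.89) and Cnn2 with Lmod1 (r = 0.81, rho = 0.77), with exact permutation p of r of 0.0278, 0.0431 and 0.0417 and an adjusted p of 0.168 for each. Without the 2 farthest libraries these were 0.65, 0.65 and 0.69. Myl9 was only loosely tied to Tpm1 (r = 0.20) and Tpm2 (r = 0.28).

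Over all 6 libraries Tpm4 had the lowest correlations of the members, and these rested on control 1. Its r was -0.10 with Acta2, -0.10 with Myl9 and 0.03 with Cnn2, and its highest was 0.61, with Tpm1. Without control 1, where Tpm4 was lowest and Acta2 highest, the r of Tpm4 was 0.96 with Acta2, 0.90 with Tagln, 0.70 with Cnn2 and 0.47 with Myl9. Among the 4 Htr2b_cKO libraries alone it was 0.96 with Acta2 and 0.20 with Myl9. The 36 pairs without Tpm4 had r of 0.20 or more over the 6 libraries, with a median of 0.69.

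**Figure D4:**
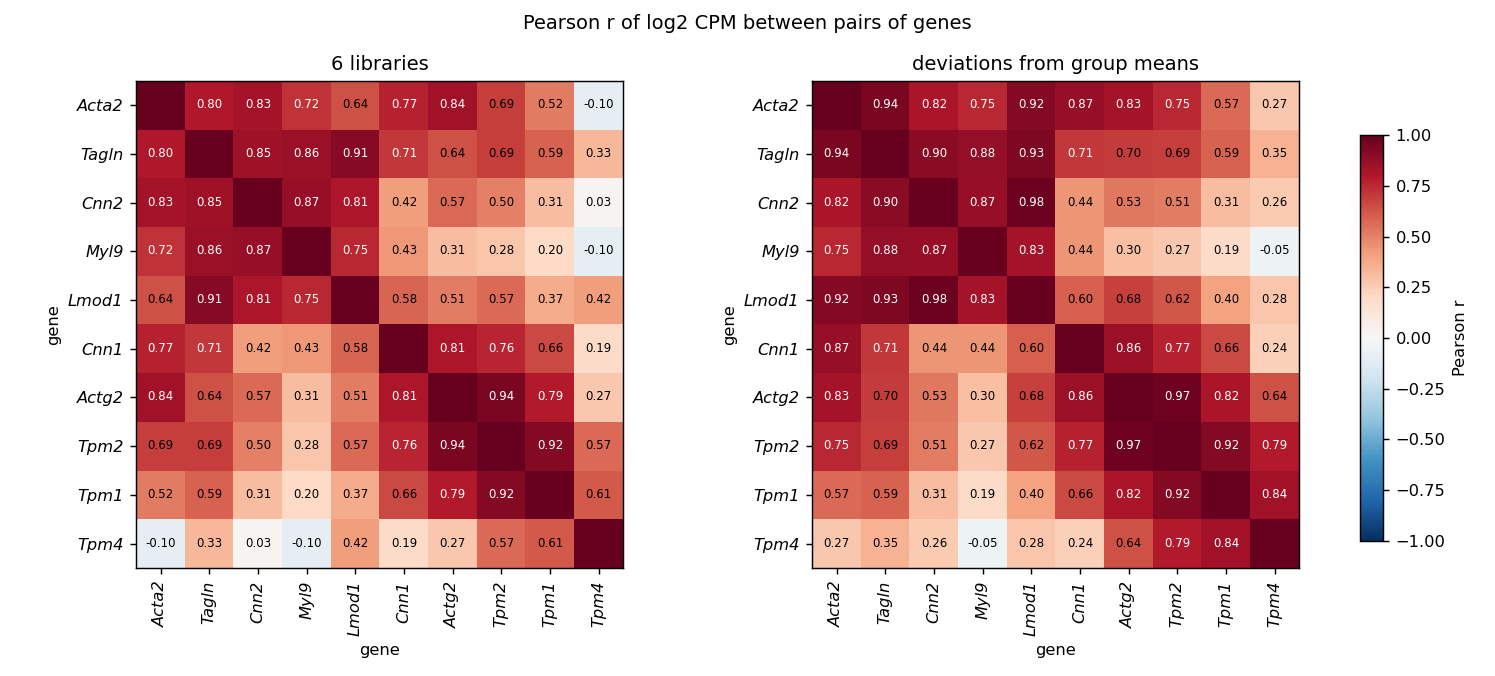
Pearson r of log2 CPM for each pair of the 10 genes (rows and columns), over the 6 libraries (left) and over deviations from the group means (right). The highest values on the left are Tpm2 with Actg2, at 0.94, and Tpm1 with Tpm2, at 0.92. Tpm4 has the palest row on the left, from -0.10 to 0.61, where control 1 is included. The highest value on the right is Cnn2 with Lmod1, at 0.98.

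Some markers of vessel cells, but not all, were highest in control 1, the library with the highest mean standardised level of the members. By summed CPM the members stood at 2323 in control 1 and at 2456 in Htr2b_cKO 2. Myh11, the myosin heavy chain of differentiated smooth muscle, was at 24.4 CPM in control 1, at 6.04 CPM in control 2 and at 6.84, 7.53, 7.28 and 3.62 CPM in Htr2b_cKO mice. Rgs5, a pericyte gene, was at 23.9 CPM in control 1, at 3.94 in control 2 and at 6.71 to 14 CPM in Htr2b_cKO mice. The summed level of 11 mural cell markers was 312 to 397 CPM in control and 262 to 383 CPM in Htr2b_cKO mice. Most of this sum was Pdgfrb, at 230 and 237 CPM in control and 160 to 294 CPM in Htr2b_cKO mice. The sum therefore says little of the other mural markers. Of the 11, 6 were highest in control 1, and Higd1b was at 0 in at least 1 library. Others had another order: Abcc9 was at 10 and 9.44 CPM in control and at 13.2 to 22.6 CPM in Htr2b_cKO mice, Cspg4 was highest in Htr2b_cKO 2, Pdgfrb and Mustn1 in Htr2b_cKO 4 and Vtn in control 2. The 8 endothelial markers summed to 309 CPM in control 1, 74.9 in control 2 and 76.8 to 149 in Htr2b_cKO libraries, and 7 of the 8 were highest in control 1. In Htr2b_cKO 2, which was second to control 1 in the members' mean standardised level, the endothelial markers summed to 79.4 CPM. The mural cell markers summed to 317 CPM in that library. The 11 cardiomyocyte markers summed to 51.8 CPM in control 1, 13.6 in control 2 and 15.7 to 36.5 in Htr2b_cKO libraries. The 11 macrophage markers summed to 2782 and 1001 CPM in control and 943, 2392, 4351 and 546 CPM in Htr2b_cKO mice, highest in the library labelled Htr2b_cKO 3, where the members were low. The lymphocyte list summed to 1067 and 1046 CPM in control and 143 to 883 CPM in Htr2b_cKO mice, nearly all of it Ighm, and Ms4a1, Cd3e and Cd8a were at 0 in at least 1 library. The part of these cells in the levels of the contractile genes was not tested, and in sorted bulk RNA fewer cells of a type and less RNA per cell cannot be told apart. Postn, the periostin gene of activated fibroblasts, was at 2309 and 1586 CPM in control and at 1350, 1526, 2312 and 982 CPM in Htr2b_cKO mice. Control 1 and the library labelled Htr2b_cKO 3 were thus highest for Postn. Because the Cre allele of the Htr2b_cKO mice lies at Postn, its part in their Postn level cannot be told apart. Other markers of activated fibroblasts differed among themselves. Ltbp2 was highest in control 1, Cthrc1 in Htr2b_cKO 2, Fn1 in control 2, and Fap, Ddah1 and Ccn2 in the library labelled Htr2b_cKO 3. Control 2 was lowest for Cthrc1, Ddah1 and Ccn2, Htr2b_cKO 4 for Postn, Fap and Ltbp2, and the library labelled Htr2b_cKO 3 for Fn1.

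**Figure D5:**
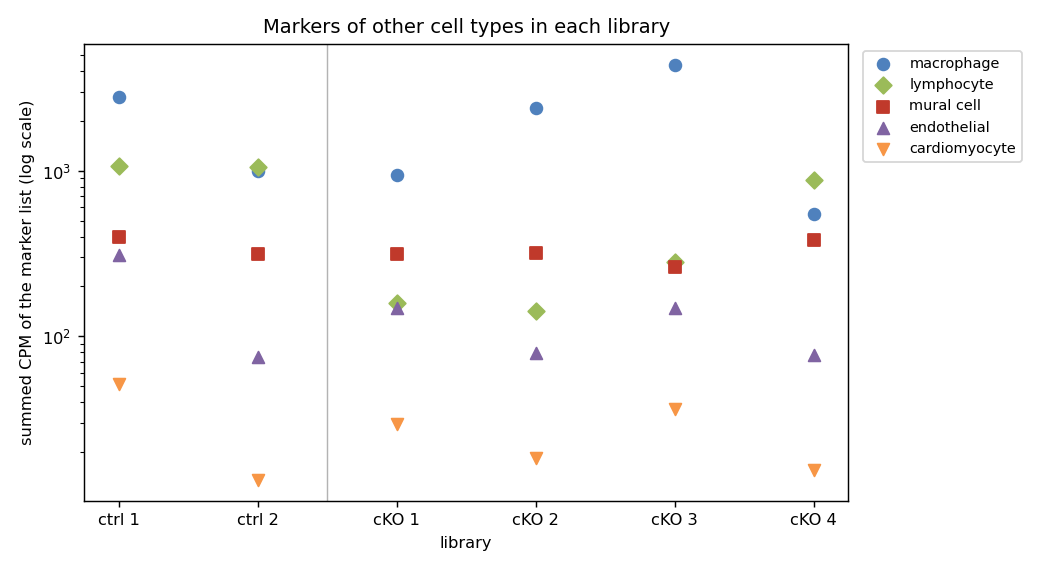
Summed CPM of the markers of 5 other cell types (vertical axis, log scale) in each library (horizontal axis). Endothelial and cardiomyocyte markers are highest in control 1, at 309 and 51.8 CPM, and macrophage markers are highest in Htr2b_cKO 3, at 4351 CPM.

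Among relatives of the members that are not themselves members, none of the 13 tested was called by edgeR, with 3 above 0, 10 below and a median log2 fold change of -0.12. Tagln3, Lmod2 and Lmod3 did not pass the filter on low counts. The cytoskeletal actin Actb was at 1675 and 1473 CPM in control and at 1282, 1431, 1238 and 1657 CPM in Htr2b_cKO mice, and Actg1 at 2034 and 1888 against 1801, 2045, 1553 and 1842 CPM. For both the groups overlapped. Control 1 exceeded control 2 by far less for these actins than for Acta2. Cnn3 was at 347 and 403 CPM in control and at 277 to 435 CPM in Htr2b_cKO mice, and Tagln2 at 544 and 504 against 407 to 619 CPM. The muscle actins of the heart and skeleton, Actc1 and Acta1, were near the bottom of the range, at 1.52 to 5.88 CPM and 0.271 to 1.74 CPM. The light chain genes Myl6, Myl12a and Myl12b spanned 440 to 649, 235 to 320 and 90.3 to 132 CPM. The capping genes Tmod1, Tmod2 and Tmod3 spanned 0.463 to 3.77, 9.65 to 19.1 and 122 to 181 CPM. Tpm3 had the smallest p of this list, at 372 and 361 CPM in control and 250, 283, 262 and 215 CPM in Htr2b_cKO mice (log2 fold change -0.54, SE 0.15, edgeR adjusted p = 0.372). With the authors' factors as offsets it was -0.04. Of the 31-base stretches of its copy Tpm3-rs7, 78.6% also occur in Tpm3 transcripts. That copy had 63.3 and 61.1 CPM in control and 137 to 194 CPM in Htr2b_cKO mice, and the pair summed to 435 and 423 CPM in control and to 418, 477, 434 and 352 CPM in Htr2b_cKO mice, so how reads were divided between them is uncertain.

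Most genes that control the contractile program were expressed. None of the 9 regulators was called by edgeR, with 6 above 0, 3 below and a median of 0.06 (log2 fold change). Srf was at 54.8 and 52.7 CPM in control and at 51.1, 47.9, 38.5 and 63.6 CPM in Htr2b_cKO mice. Its partners Mrtfa, at 35.1 to 43.3 CPM, and Mrtfb, at 17.3 to 25.2 CPM, were both expressed, whereas Myocd, the partner restricted to cardiac and smooth muscle, was at 0.0723 to 0.483 CPM. Fhl2, a LIM protein that binds SRF partners, spanned 14 to 26.5 CPM, and the ternary complex factors Elk1 and Elk3 spanned 16.6 to 24.2 and 76.7 to 84.9 CPM. Elk4 was at 26.5 and 29.2 CPM in control and at 30.6 to 38.9 CPM in Htr2b_cKO mice (log2 fold change 0.27, SE 0.15, edgeR adjusted p = 0.621). Klf4, a repressor of smooth-muscle genes, was at 398 and 616 CPM in control and at 615, 690, 575 and 922 CPM in Htr2b_cKO mice (log2 fold change 0.47, SE 0.25, edgeR adjusted p = 0.603). Its log2 fold change was 0.18 without control 1 and 0.82 without control 2. Klf4 was lowest in control 1, where Acta2 was highest, and highest in Htr2b_cKO 4, where Acta2 was at 258 CPM. Acta2 was lowest, at 217 CPM, in the library labelled Htr2b_cKO 3, where Klf4 was at 575 CPM. A relation between Klf4 and the members was not tested.

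None of the myosin motor genes and their regulators was called by edgeR, although most had a log2 fold change above 0. Of 14 genes 11 had a log2 fold change above 0 (median 0.24), beside 50% of all genes tested. After the GC and exon length correction 10 were above 0 (median 0.15), beside 54.2% of all genes. An unadjusted edgeR p under 0.05 was reached by 4 genes, 3 higher and 1 lower, beside 9.59% of all genes tested in either direction and 6.6% higher in Htr2b_cKO mice. DESeq2 called 2 of the 14, beside 0.789% of all genes. Of 17 genes of actin crosslinkers and stress fibres, 7 were above 0 and 10 below, with a median of -0.04, and none was called by edgeR. The filament elongation gene Vasp was at 137 and 110 CPM in control and at 93.9, 109, 92.8 and 100 CPM in Htr2b_cKO mice (log2 fold change -0.32, SE 0.14, edgeR adjusted p = 0.539). The intermediate filament gene Des was at 115 and 89.4 CPM in control and at 102, 86.4, 61.7 and 70.8 CPM in Htr2b_cKO mice (log2 fold change -0.35, SE 0.21, edgeR adjusted p = 0.634). Without control 1 the log2 fold changes were -0.15 for Vasp and -0.16 for Des, and after the GC and exon length correction they were -0.12 and -0.19.

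The genes outside the members whose profile over the 6 libraries was most like the members' mean standardised log2 CPM were Kif18b (r = 0.98), Nme1 (r = 0.98), Lmnb1 (r = 0.97), Plk1 (r = 0.96) and Lig1 (r = 0.96), among 9933 tested genes with a mean log2 CPM of at least 3. Plk1, a mitotic kinase gene, was at 31.7 and 17.5 CPM in control and at 21.6, 28.3, 17.5 and 21 CPM in Htr2b_cKO mice, highest in control 1 and Htr2b_cKO 2. Kif18b, a mitotic kinesin gene, was at 10.2 and 7.12 CPM in control and at 9.3, 10.7, 7.4 and 7.72 CPM in Htr2b_cKO mice. An r above 0.9 was reached by 34 of the 9933 genes, or 0.342%, and the median was -0.03. These values describe 6 libraries and were picked as the highest of many, so no test is given.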

How the data were processed

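RNA of the sorted cells went into a strand-preserving library kit, per the labels' protocols; whether strand was used in counting is not given in the sources used here. The authors deposited whole-number estimated counts for each Ensembl gene, without normalization, and these were used unchanged. Of the deposited normalized signal, the implied scaling factors were used for 1 alternative fit. Its values were used for 1 alternative of the members' median pairwise r. The submitters' processing notes list DRAGEN, DESeq2 and mm10, with no version. GENCODE release M21, of that build, gave symbols, positions and exon lengths for all 42256 identifiers.

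Genotype was the single term in edgeR (version 4.0.16, R version 4.3.3), with TMM scaling, filterByExpr, robust dispersions and a quasi-likelihood F test, which was tested on simulated data. An SE is the absolute log2 fold change over the root of F. Log2 CPM used a prior count of 2. No library was a copy of another (chi-square per degree of freedom at least 47.4 for all 15 pairs). Alternatives were other scalings and tests (DESeq2 1.42.0, limma 3.58.1), no filter, a GC and exon length correction, edgeR's legacy dispersion (added after seeing the data) and omitted libraries.

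The members, lists and tests were chosen with earlier results of these data known. Named genes were the members, Htr2b, the relatives, the SRF regulators, the 2 genes of smallest p in each other program list, cell type markers, and the 5 genes most like the members' mean profile; some genes that rule took are not described, and results on some genes of the myosin list are not reported here.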

Additional observations from a re-analysis of the deposited data

How the results depend on the processing

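No member was called in any of the 16 fits (smallest adjusted p = 0.267, Acta2 without control 2). The GC and exon length correction placed 8 of 10 members above 0, with Tagln at 0.19, Cnn1 at 0.06, Cnn2 at 0.05, Myl9 at 0.04 and Tpm2 at 0.18. Without both Htr2b_cKO 3 and Htr2b_cKO 4, Tagln was at 0.23, Cnn1 at 0.24, Tpm2 at 0.23 and Actg2 at 0.01. Limma voom gave 0.11 for Tagln and -0.01 for Tpm1, upper-quartile scaling -0.03 for Tpm1, and the authors' factors 0.00 for Tpm1 (below 0 before rounding) and 0.01 for Tpm2. Leaving out 1 library at a time, the log2 fold change ran from -0.77 to 0.18 for Acta2, -0.53 to 0.81 for Tagln, -0.71 to 1.00 for Cnn1, -0.41 to 0.19 for Cnn2, -0.74 to 0.61 for Myl9, -0.07 to 0.10 for Tpm1, -0.16 to 0.18 for Tpm2, -0.55 to 0.15 for Actg2 and -0.20 to 0.78 for Lmod1. Tpm4 stayed between 0.20 and 0.42 in all fits. Over all genes edgeR called 3, against 125 with DESeq2, 5 without the filter, 5 without both Htr2b_cKO 3 and Htr2b_cKO 4, and 1 to 8 with 1 library left out (1 without control 1, 6 without control 2, 8 without Htr2b_cKO 4). DESeq2 called 2 genes of the myosin list, where edgeR called 0. The median pairwise r of the members was 0.59 to 0.74 with 1 library left out and 0.60 to 0.69 under the other settings. Where these differed, the cause was not tested. No paired analysis was possible because the labels give no replicate numbers that pair the groups. Lmod1 and Actg2 had the fewest counts of the members.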
